A study of Mus musculus with 6 samples.

Results

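The genes described here make sterols and fatty acids or control how much of them a cell makes. Of 37 genes listed for the pathway (22 of a sterol arm, 14 of a fatty acid arm, and Ch25h, which was kept apart from both), 34 had a probe set named with that gene alone and all 34 passed the filter on low values. They stand among 18458 genes tested. Idi1, Acat2 and Scd2 had no such probe set. The series measured RNA of flow-sorted mouse cells on Mouse Gene 2.0 ST arrays, whose short oligonucleotide probes are combined into 1 intensity for each probe set. Every mouse had been given Th9 cells, which are interleukin-9-making helper T cells, and tissue was collected 10 days later. The labels name no group without this transfer. Inflammatory monocytes, gated as CD11b+, CD11c- and Ly6C high, were sorted from spleen (n = 3 arrays) or tumor (n = 3 arrays). The strain field of the labels reads Th9, and the mouse strain, age and sex, the kind of tumor and whether an array holds 1 mouse or a pool are not stated in the labels.

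Cholesterol and its precursors are built from acetyl-CoA through mevalonate and squalene, and fatty acids from acetyl-CoA through malonyl-CoA. Both branches answer to the SREBP transcription factors: the product of Srebf2 acts mainly on sterol genes and that of Srebf1 mainly on fatty acid genes. Scap carries both from the endoplasmic reticulum to the Golgi for activation, and the Insig proteins hold Scap back when sterols are plentiful. Macrophages also make 25-hydroxycholesterol through the enzyme encoded by Ch25h, a well-known interferon-inducible gene whose product binds Insig and reduces SREBP activation.

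Upstream sequences of 6 genes are shown because SREBP factors bind near a start site together with NF-Y, which recognises CCAAT, and Sp1, which recognises GGGCGG. Hmgcs1 is shown as a classical SREBP target whose difference did not pass the test. Dhcr7, Mvd, Fasn and Lpin1 are shown as genes that fell, and Ch25h as the gene with the largest rise. Pmvk, which also rose and holds CCAAT, is not shown. Each is the run of 250 bases before a RefSeq start site in the assembly GRCm38.p6, 5′ to 3′ on the gene's strand. Capitals mark CCAAT or TCACNCCAC (a form of the sterol regulatory element) on either strand, with runs joined where matches overlap.
Hmgcs1, chr13:119690101-119690350, plus strand: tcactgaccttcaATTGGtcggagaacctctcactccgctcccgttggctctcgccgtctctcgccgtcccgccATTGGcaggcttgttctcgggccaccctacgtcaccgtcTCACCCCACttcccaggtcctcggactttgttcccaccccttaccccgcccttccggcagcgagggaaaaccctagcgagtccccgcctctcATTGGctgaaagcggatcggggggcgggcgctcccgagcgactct
Dhcr7, chr7:143829964-143830213, plus strand: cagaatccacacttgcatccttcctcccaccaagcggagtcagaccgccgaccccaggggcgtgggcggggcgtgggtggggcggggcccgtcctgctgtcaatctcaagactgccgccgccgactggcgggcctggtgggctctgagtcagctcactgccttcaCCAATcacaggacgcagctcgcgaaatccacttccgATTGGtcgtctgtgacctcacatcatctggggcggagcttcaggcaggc
Mvd, chr8:122443423-122443672, minus strand: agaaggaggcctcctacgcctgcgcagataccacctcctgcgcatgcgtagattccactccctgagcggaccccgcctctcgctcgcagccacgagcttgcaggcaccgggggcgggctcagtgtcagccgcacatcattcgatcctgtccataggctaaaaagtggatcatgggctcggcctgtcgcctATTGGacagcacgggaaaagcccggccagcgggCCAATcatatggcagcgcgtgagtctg
Fasn, chr11:120824548-120824797, minus strand: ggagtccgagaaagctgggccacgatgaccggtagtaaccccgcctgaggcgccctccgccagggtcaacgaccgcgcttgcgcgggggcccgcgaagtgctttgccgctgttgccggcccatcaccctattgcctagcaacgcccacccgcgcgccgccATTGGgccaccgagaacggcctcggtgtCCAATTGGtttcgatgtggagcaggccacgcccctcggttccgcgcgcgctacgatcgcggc
Lpin1, chr12:16610967-16611216, minus strand: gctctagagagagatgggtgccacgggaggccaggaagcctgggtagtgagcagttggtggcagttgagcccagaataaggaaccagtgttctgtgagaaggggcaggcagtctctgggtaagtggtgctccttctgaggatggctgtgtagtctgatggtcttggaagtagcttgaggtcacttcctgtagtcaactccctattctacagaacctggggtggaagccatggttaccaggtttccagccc
Ch25h, chr19:34475149-34475398, minus strand: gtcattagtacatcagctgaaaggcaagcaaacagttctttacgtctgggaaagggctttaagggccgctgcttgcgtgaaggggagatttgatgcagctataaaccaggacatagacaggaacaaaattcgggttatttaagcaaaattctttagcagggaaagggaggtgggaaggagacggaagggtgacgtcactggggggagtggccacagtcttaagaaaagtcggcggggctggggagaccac
The sequence of Hmgcs1 holds 3 CCAAT matches and 1 match to TCACNCCAC. Dhcr7 and Mvd hold 2 CCAAT matches each and Fasn 3, of which a pair overlaps, while Lpin1 and Ch25h hold none. Dhcr7 has 3 listed starts, and the one shown has the most CCAAT matches.

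RefSeq start sites on chromosome 18 were left out of these counts, for members and for all genes. Upstream sequences were counted for 30 of the 37 genes, in 42 windows. CCAAT was present in 16 of 24 windows of the sterol arm (66.7%) and in 7 of 17 of the fatty acid arm (41.2%), against 33.8% of 32851 windows of all genes. GGGCGG was present in 19 of 24 and 9 of 17 windows (79.2% and 52.9%), against 32.7% of all. TCACNCCAC was found in Hmgcs1 alone of the 30 genes and in 1.05% of all windows. A form of the interferon response element, which is TTTC, any 2 bases and TTTC again, was found in Ebp alone of the 30 and in 2.98% of all windows. These are matches of letters in 1 window per start, base composition was not matched, and no binding was measured.

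Levels are log2(intensity + 1) and groups are given as mean ± SD (n = 3). Differences were taken as tumor minus spleen, ± SE, and a gene was called at a limma adjusted p under 0.05 over all genes tested. Values on single arrays are given in the order of the replicate numbers 1, 2 and 3. The arrays numbered 3 stood apart in both groups. Array medians of log2(intensity + 1) were 4.50 to 4.51 on numbers 1 and 2 and 4.73 and 4.76 on number 3. Between 5.92% and 8.55% of probe sets had the very same deposited value on any pair of the 4 arrays numbered 1 and 2, while the arrays numbered 3 shared none with them and 12 (0.029%) with each other. Whether the arrays numbered 3 were normalized together with the others is not stated in the labels, so their shift against the others cannot be told apart from processing. The difference over numbers 1 and 2 and that within number 3 are given wherever they lie more than 0.25 apart, and for Scap and Ch25h. The labels do not state that the 3 arrays of a group stand for separate animals. The p-values therefore rest on the spread among these arrays alone, and that spread may be technical.

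The sorted cells were read against markers of the sort and of other cells. The CD11b gene Itgam read 10.04 ± 0.15 in spleen and 9.19 ± 0.22 in tumor. The CD11c gene Itgax, whose protein the gate excludes, read 11.16 ± 0.12 in spleen and 10.31 ± 0.17 in tumor. Both means lay above 9.77, the 95th percentile of mean levels of all genes tested. By RNA the CD11c- gate is thus not borne out, and the name monocytes rests on the labels. Among dendritic cell markers Ccr7 read 11.56 ± 0.09 and 12.11 ± 0.03 in spleen and tumor, while Xcr1 read 4.59 ± 0.28 and 4.30 ± 0.06. The monocyte gene Csf1r read 11.39 ± 0.13 and 10.82 ± 0.10, and Ccr2 6.86 ± 0.09 and 5.93 ± 0.15. Of 8 tested markers of dendritic cells 4 were higher and 0 lower in tumor (0 lower also at an unadjusted p under 0.05), and their summed intensity was 4915 to 5148 in spleen and 7625 to 8131 in tumor. That sum rests mostly on Ccr7 and Bst2. The list did not move as one: Bst2 (1.38), Zbtb46 (0.89), Dpp4 (0.87) and Ccr7 (0.54) were called. Flt3 (0.09), Siglech (0.10), Xcr1 (-0.29) and Cd209a (-0.41, called lower with the replicate number as a block) were not. The genes of the sort did not move one way. Ly6c2, which encodes the gate's Ly6C, rose from 6.81 ± 0.58 to 8.29 ± 0.40 (adjusted p = 0.0185), while the monocyte genes Ccr2 (-0.93 ± 0.15, adjusted p = 0.00515) and Csf1r (-0.57 ± 0.15, adjusted p = 0.0428) fell, as did Itgam and Itgax (adjusted p = 0.015 and 0.00986). Ly6c1 and Adgre1 were not called. The summed intensity of these genes without Itgax was 4994 to 6228 in spleen and 3463 to 4311 in tumor. Of 6 melanocytic, 5 epithelial, 6 B cell, 4 mast cell or basophil and 1 red cell markers 0 were called by limma, and 0 had an unadjusted p under 0.05. Called markers were 1 of 7 for T and NK cells (Cd3g, -1.36), 1 of 9 for neutrophils (Mmp8, -0.68) and 2 of 9 for fibroblasts and endothelium (Kdr, 2.88, and Vwf, -1.37). Mmp8 read 10.93 ± 0.22 in spleen and 10.25 ± 0.12 in tumor. Summed intensities also lay apart for neutrophils (3133 to 3795 in spleen, 2352 to 2667 in tumor) and for T and NK cells (249.3 to 307.5 and 155.6 to 218.2). Those of the other lists overlapped. With the replicate number as a block the calls, higher and lower, numbered 1 and 5 for the sort, 4 and 1 for dendritic cells, 0 and 2 for neutrophils, 0 and 1 for epithelium and 2 and 2 for fibroblasts and endothelium. Of all genes tested 11.7% were higher and 17.3% lower with this block, and 5.73% and 4.85% without it. An array gives no true 0, and the part of these differences in the results that follow was not tested. In sorted bulk samples fewer cells of a type and less RNA per cell cannot be told apart.

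Ch25h rose strongly in tumor, while a few genes of both arms fell and most showed no call. In the sterol arm 3 of 20 genes fell (Dhcr7, Mvd and Scap), 1 rose (Pmvk) and 16 were not called. That is 20.0% called, against 10.6% of all genes tested (5.73% higher and 4.85% lower). In the fatty acid arm 4 of 13 fell (Fasn, Elovl1, Fads1 and Lpin1), which is 30.8%, and 0 rose (1, Lpin2, at an unadjusted p under 0.05). The sterol arm had a median difference of -0.21 and the fatty acid arm one of -0.30, against -0.05 over all genes tested, and 15 of 20 and 12 of 13 genes lay below 0, against 58.6% of all. Single arrays moved these medians: without spleen 3 they were -0.043 and -0.13 (0.019 over all genes), and without tumor 3 they were -0.35 and -0.47 (-0.13 over all genes). Without spleen 1 the fatty acid median was -0.45, and with cyclic loess the medians were -0.11 and -0.19 (-0.011 over all genes). All 3 tumor values lay below all 3 spleen values in 6 sterol and 5 fatty acid genes, against 15.5% of all genes. In 1 gene of each arm they lay above, against 9.81% of all.

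**Figure D1:**
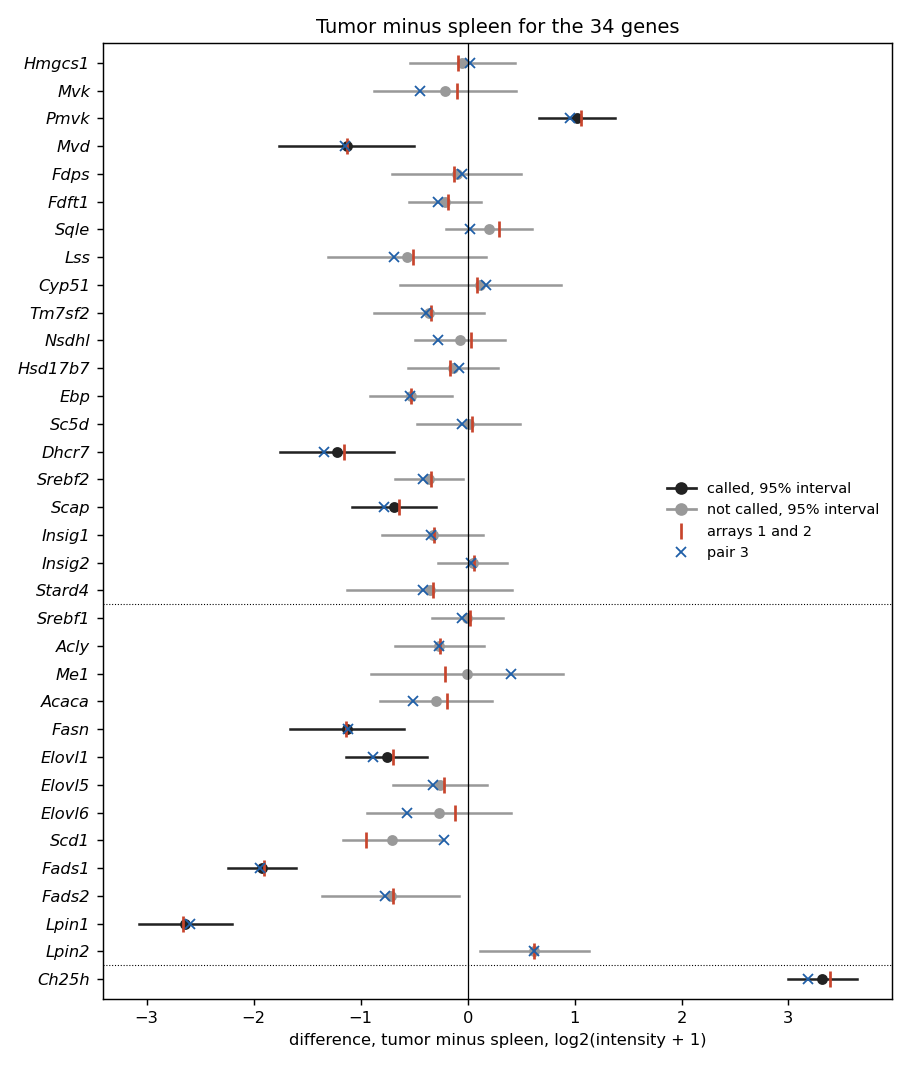
Difference, tumor minus spleen, in log2(intensity + 1) for the 34 genes: dots with bars are the fit's value and its unadjusted 95% interval (black where called). Red ticks give the difference over arrays 1 and 2, and blue crosses that of the arrays numbered 3 (pair 3 in the legend). Dotted lines part the sterol arm, the fatty acid arm and Ch25h. Ch25h at 3.32, Lpin1 at -2.64 and Fads1 at -1.92 lie farthest from 0, and a grey interval that misses 0 did not pass the adjustment over all genes.

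The sterol arm begins with the mevalonate steps, where neighbouring enzymes parted: of 6 genes 1 rose, 1 fell and 4 were not called. That is 33.3% called, against 10.6% of all genes tested. Pmvk, which encodes phosphomevalonate kinase, had levels of 8.62, 8.60 and 8.63 in spleen and 9.47, 9.87 and 9.58 in tumor. Every tumor array lay above every spleen array, and the rise was 1.02 ± 0.15 (2.03-fold, adjusted p = 0.00393). Mvd, which encodes the decarboxylase that acts on the product of that kinase, had levels of 7.69, 7.79 and 8.48 in spleen and 6.54, 6.70 and 7.34 in tumor. Here every tumor array lay below every spleen array, and the fall was -1.13 ± 0.27 (2.19-fold, adjusted p = 0.034). The call of Mvd was lost without spleen 1, 2 or 3 or without tumor 1 or 2 (adjusted p = 0.0517 to 0.148), with differences of -1.28 to -0.89. Pmvk stayed called with each array left out in turn (adjusted p at most 0.0262).

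The other mevalonate genes were not called. Hmgcs1, which encodes the synthase that feeds the pathway, had levels of 9.72 ± 0.24 in spleen and 9.67 ± 0.35 in tumor, and the 95% interval of its difference ran from -0.54 to 0.44. Mvk, the first kinase of mevalonate, stood at -0.21 ± 0.29 (-0.10 over numbers 1 and 2, -0.44 in number 3). Fdps, which makes farnesyl diphosphate, stood at -0.10 ± 0.26, and Fdft1, which joins farnesyl units to squalene, at -0.21 ± 0.15. In Fdft1 the groups did not overlap (8.69 to 8.93 in spleen, 8.45 to 8.68 in tumor), but the adjusted p was 0.527.

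From squalene to cholesterol, 1 of 9 genes fell and 0 rose (at an unadjusted p under 0.05 by limma 0 rose as well). That is 11.1% called, near the 10.6% of all genes tested. Dhcr7, which encodes the reductase of the final step to cholesterol, had levels of 8.25, 8.21 and 8.90 in spleen and 7.01, 7.14 and 7.56 in tumor. All tumor arrays lay below all spleen arrays, with a fall of -1.22 ± 0.23 (2.32-fold, adjusted p = 0.0122). Without tumor 1 the value was -1.10 and the call was lost (adjusted p = 0.0677). Sc5d, the desaturase whose product Dhcr7 uses, had levels of 8.53 ± 0.31 and 8.54 ± 0.28 in spleen and tumor, an interval of -0.47 to 0.49.

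The remaining 7 of these genes ranged from -0.57 to 0.20. Sqle, the squalene epoxidase and a rate-controlling step, stood at 0.20 ± 0.18 (0.30 over numbers 1 and 2, 0.018 in number 3), and Cyp51, the lanosterol demethylase, at 0.12 ± 0.33. Lss, which closes the ring to lanosterol, stood at -0.57 ± 0.32, with 6.46, 6.56 and 7.49 in spleen and 5.92, 6.09 and 6.81 in tumor. Its groups overlapped through the high arrays numbered 3, and with the replicate number as a block it was called (adjusted p = 0.00354), as it was among numbers 1 and 2 (adjusted p = 0.049). Ebp, a sterol isomerase, had groups that did not overlap (8.44 to 8.57 in spleen, 7.73 to 8.23 in tumor). Its difference was -0.53 ± 0.17 (adjusted p = 0.091, and 0.00768 with the block). Tm7sf2, a sterol reductase, stood at -0.36 ± 0.22, and Hsd17b7 and Nsdhl, which act in the removal of methyl groups from the sterol ring, at -0.14 ± 0.18 and -0.07 ± 0.18. The difference of Nsdhl was 0.031 over numbers 1 and 2 and -0.27 in number 3.

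**Figure D2:**
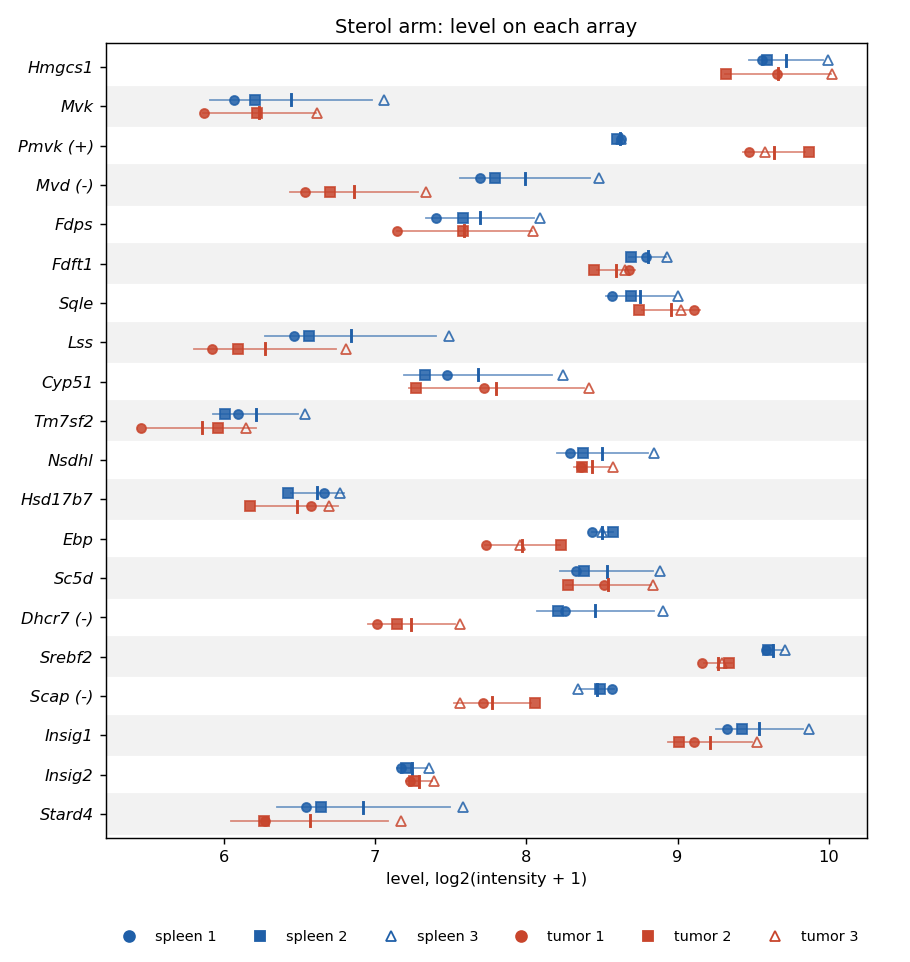
Level, log2(intensity + 1), of the 20 sterol arm genes on each array, from the mevalonate steps at the top to the regulators and Stard4 at the bottom; blue is spleen, red is tumor, symbols give the replicate number, and bars are the mean ± SD (n = 3). A plus marks the rise of Pmvk and a minus the falls of Mvd, Dhcr7 and Scap; open triangles (arrays numbered 3) lie to the right in both groups for most genes.

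Of 5 genes of SREBP2 control and sterol transport, Scap fell and 4 were not called (20.0% called, against 10.6% of all). Scap had levels of 8.57, 8.49 and 8.34 in spleen and 7.71, 8.06 and 7.56 in tumor, and the groups did not overlap. The fall was -0.69 ± 0.17 (1.61-fold, adjusted p = 0.0384). Over numbers 1 and 2 alone the difference was -0.64, and within number 3 it was -0.78. Scap is the least firm of these calls: it was lost with each array centred on its median, with quantile normalization and with cyclic loess (adjusted p = 0.0544, 0.0889 and 0.149). It was also lost among numbers 1 and 2 (adjusted p = 0.0735) and without spleen 1 or 2 or tumor 1 or 3 (adjusted p = 0.0796 to 0.156). A second, dim probe set of Scap stood at -0.02, and the mean of both at -0.36 (adjusted p = 0.169).

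The SREBP genes themselves were not called. Srebf2 had levels of 9.58, 9.60 and 9.71 in spleen and 9.16, 9.34 and 9.30 in tumor. These groups did not overlap, but the difference of -0.36 ± 0.14 had an adjusted p = 0.162 (0.0234 with the block). Srebf1, counted with the fatty acid arm, had levels of 7.27, 7.22 and 7.35 in spleen and 7.12, 7.41 and 7.29 in tumor. Its groups lay over each other, with a difference of -0.00 ± 0.15 and a 95% interval from -0.34 to 0.33.

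The Insig genes were not called either. Insig1, itself an SREBP target, had levels of 9.32, 9.43 and 9.87 in spleen and 9.11, 9.01 and 9.53 in tumor. Its groups overlapped, and the difference was -0.33 ± 0.21 (adjusted p = 0.466, 0.0368 with the block and 0.033 with quantile normalization). Insig2 had levels of 7.17, 7.20 and 7.35 in spleen and 7.23, 7.25 and 7.39 in tumor, which overlapped, with a difference of 0.05 ± 0.14. Stard4, a cytosolic sterol carrier, stood at -0.35 ± 0.34 (adjusted p = 0.695, and 0.024 with the block).

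The fatty acid arm was led by Lpin1 and Fads1, which stayed called without any one array. Lpin1 (Entrez 14245, probe set 17280062) encodes a phosphatidic acid phosphatase that makes diacylglycerol for triglycerides and also acts as a coregulator of transcription. Its levels were 9.25, 9.38 and 9.62 in spleen and 6.45, 6.85 and 7.02 in tumor, far from overlap. The fall was -2.64 ± 0.19 (6.23-fold, adjusted p = 6.15e-05), the most negative difference among the 18458 genes tested. Lpin2, its relative with the same enzyme activity, had levels of 7.59 ± 0.32 in spleen and 8.21 ± 0.32 in tumor. All 3 tumor arrays lay above all 3 spleen arrays, but the difference of 0.62 ± 0.22 was not called (adjusted p = 0.135). It was called with the block (adjusted p = 0.0022), without spleen 3 (0.80, adjusted p = 0.0496), among numbers 1 and 2 (adjusted p = 0.0226) and under the 3 scalings (adjusted p = 0.00584 to 0.0236).

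Of 6 genes of elongation and desaturation 2 fell (33.3%, against 4.85% of all genes), and the median difference was -0.71. Fads1 (Entrez 76267, probe set 17357460) encodes a desaturase of the route to arachidonic acid. Its levels were 9.43, 9.67 and 9.53 in spleen and 7.63, 7.66 and 7.59 in tumor. The groups lay well apart and the arrays numbered 3 did not stand out, and the fall was -1.92 ± 0.14 (3.78-fold, adjusted p = 6.34e-05). Fads2, which encodes the desaturase of the first step of the same route, stood at -0.72 ± 0.28 (adjusted p = 0.171, and 0.00164 with the block). Its levels were 6.72, 6.68 and 7.48 in spleen and 5.87, 6.15 and 6.70 in tumor, so the groups overlapped through tumor 3. Scd1, the stearoyl-CoA desaturase, had 6.45, 6.71 and 6.39 in spleen and 5.79, 5.47 and 6.16 in tumor. Its groups did not overlap, and the difference was -0.95 over numbers 1 and 2 and -0.22 in number 3. Scd1 stood at -0.71 ± 0.20 in all (adjusted p = 0.0651, 0.0218 with the block and 0.0213 without tumor 3, where it was -0.88). Scd1 and Fads2 were also called with median centring (adjusted p = 0.0279 and 0.0425), with quantile normalization (0.0491 and 0.0359) and among numbers 1 and 2 (0.0437 and 0.0425), and Scd1 with the 50th percentile filter (0.0479).

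In de novo synthesis, 1 of 4 genes fell and 0 rose (at an unadjusted p under 0.05 by limma 0 rose as well). Over all genes tested 4.85% were called lower and 5.73% higher. Fasn, which encodes fatty acid synthase, had levels of 7.85, 7.99 and 8.45 in spleen and 6.61, 6.95 and 7.33 in tumor. All tumor arrays lay below all spleen arrays, with a fall of -1.13 ± 0.23 (2.19-fold, adjusted p = 0.017). The call was lost without spleen 2, tumor 1 or tumor 2 (adjusted p = 0.0506 to 0.0772), with differences of -1.18 to -0.95. Acaca, the acetyl-CoA carboxylase before it, stood at -0.30 ± 0.23 (-0.19 over numbers 1 and 2, -0.51 in number 3). Acly, which supplies cytosolic acetyl-CoA from citrate, stood at -0.26 ± 0.18 and was called with quantile normalization alone (-0.37, adjusted p = 0.0363). Me1, the malic enzyme that supplies NADPH, stood at -0.01 ± 0.39. Its difference was -0.21 over numbers 1 and 2 and 0.40 in number 3, and its interval of -0.90 to 0.89 is the widest of the 34.

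Among the elongases Elovl1 fell. Elovl1, which extends saturated and monounsaturated chains, averaged 9.16 ± 0.23 in spleen against 8.40 ± 0.13 in tumor, with no overlap. The fall was -0.76 ± 0.17 (1.69-fold, adjusted p = 0.023), and the call was lost without spleen 1, tumor 1 or tumor 2 (adjusted p = 0.0706 to 0.114), with differences of -0.78 to -0.69. Elovl5, which extends polyunsaturated chains, stood at -0.25 ± 0.19, and Elovl6, which extends palmitate, at -0.27 ± 0.30 (-0.12 over numbers 1 and 2, -0.56 in number 3). The groups overlapped in both.

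**Figure D3:**
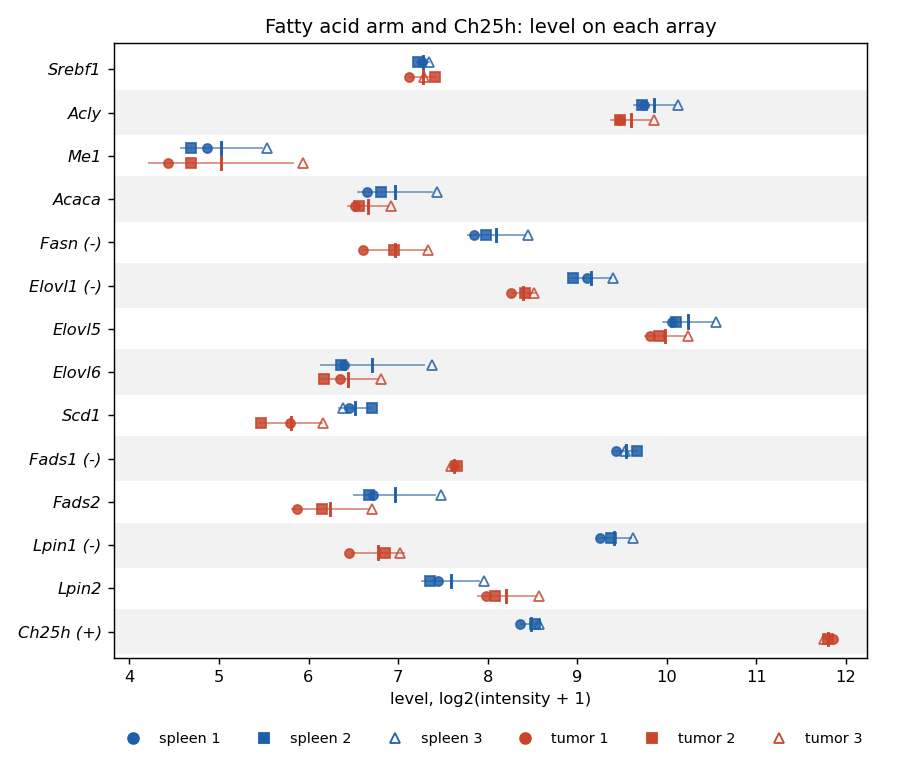
Level, log2(intensity + 1), of the 13 fatty acid arm genes and Ch25h on each array; blue is spleen, red is tumor, symbols give the replicate number, bars are the mean ± SD (n = 3), a plus marks a called rise and a minus a called fall. The groups lie far apart for Lpin1, Fads1 and Ch25h, while those of Srebf1 and Me1 lie over each other.

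Ch25h (Entrez 12642, probe set 17364111) had the largest difference of the 34 genes. Its levels were 8.36, 8.53 and 8.57 in spleen and 11.85, 11.80 and 11.76 in tumor. The arrays within a group lay close together and the groups far apart, and the rise was 3.32 ± 0.14 (9.97-fold, adjusted p = 3.72e-06). It was 3.38 over numbers 1 and 2 and 3.18 in number 3. A second, dimmer probe set of Ch25h read 4.97, 5.04 and 4.87 in spleen and 5.57, 5.22 and 5.79 in tumor, a difference of 0.57 with no overlap. The mean of both probe sets gave 1.94, which was still called.

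Relatives and neighbours of the pathway were then set against each other in 6 pairs picked after their values had been seen, by the difference between their changes on each array. The change of Lpin2 minus that of Lpin1 was 3.26 ± 0.15, that of Pmvk minus Mvd 2.16 ± 0.37 and that of Fads2 minus Fads1 1.20 ± 0.38. For Elovl5 minus Elovl1 it was 0.50 ± 0.10, for Insig2 minus Insig1 0.38 ± 0.16 and for Srebf1 minus Srebf2 0.36 ± 0.04. Each value keeps its sign, so a gene that fell less than its partner gives a value above 0. These SE came from the spread of the 3 arrays per group for each pair alone, not from limma. In each pair the 3 tumor values lay above the 3 spleen values, and the two-sided exact permutation test gave p = 0.1, the smallest that 3 against 3 arrays allow (0.1 after adjustment over the 6 pairs). No pair could therefore pass 0.05.

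The arrays numbered 3 read higher than numbers 1 and 2 for most of these genes. Number 3 was the highest array in both groups in 14 of 20 sterol genes and 10 of 13 fatty acid genes, against 61.8% of all genes tested. In spleen the shift of number 3 had a median of 0.49 in the sterol arm and 0.47 in the fatty acid arm, against 0.29 over all genes. In tumor the medians were 0.44 and 0.38, against 0.28. Stard4 shifted by 0.99 in spleen and 0.90 in tumor, Lss by 0.98 and 0.80, and Cyp51 by 0.84 and 0.92. Me1 shifted by 0.77 and 1.38. Scap lay lower on number 3 in both groups (-0.19 and -0.33), and Fads1, Pmvk, Ebp and Ch25h moved by no more than 0.13 in either group.

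**Figure D4:**
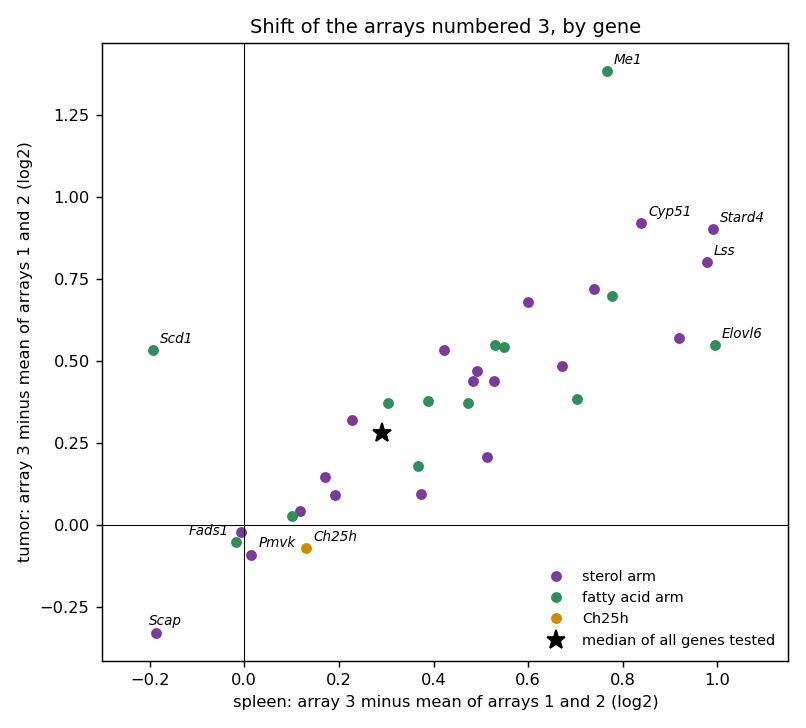
Level on the array numbered 3 minus the mean of arrays 1 and 2, in log2(intensity + 1), in spleen (horizontal) and tumor (vertical); each dot is 1 of the 34 genes, coloured by arm, and the star is the median of all genes tested. Most dots lie up and to the right of the star at 0.29 and 0.28, with Stard4, Lss, Cyp51 and Me1 farthest out and Scap below 0 in both.

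This shift widens the spread within each group, and a fit with the replicate number as a block takes it out. With the block 8 sterol genes were lower and 1 higher, the added ones being Ebp, Insig1, Lss, Srebf2 and Stard4. In the fatty acid arm 6 were lower and 1 higher, the added ones being Fads2, Scd1 and Lpin2. Not every added gene had a shared shift of number 3. It was -0.007 in spleen and -0.020 in tumor for Ebp, and 0.12 and 0.043 for Srebf2. For Scd1 the signs were opposite (-0.19 in spleen and 0.53 in tumor). The background rose as well, to 29.0% of all genes (17.3% lower and 11.7% higher). Without the block the sterol calls numbered 2 without spleen 1, 2 without spleen 2 and 1 without tumor 1, where 6.21%, 5.59% and 5.48% of all genes were called. The fatty acid calls numbered 2 without tumor 1 and 2 without tumor 2, where 5.48% and 7.45% of all genes were called.

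Other genes of the pathway were counted from lists. The shares called were 0.0%, 10.0%, 9.09%, 40.0%, 3.85% and 13.3% in the order given below, against 10.6% of all genes tested. The share of all genes at an unadjusted p under 0.05 is not given here, so counts at that threshold have no background to be read against. Of 5 other sterol synthesis enzymes 0 were called, by limma, and 2 had an unadjusted p under 0.05. These were Ggps1, which makes geranylgeranyl diphosphate (0.65 ± 0.25, adjusted p = 0.167, and 0.00487 with the block), and Acat1, a thiolase (-0.49 ± 0.16, adjusted p = 0.0943, and 0.0129 with the block). Of 10 genes of SREBP processing and sterol sensing 1 rose. Rnf139, which encodes a sterol-sensing ubiquitin ligase of the endoplasmic reticulum, rose by 1.52 ± 0.21 from a level of 8.56 ± 0.28 (adjusted p = 0.00253). Of 11 genes of sterol uptake, trafficking and esters 1 rose: Stard3, a sterol carrier of late endosomes (1.12 ± 0.27, adjusted p = 0.0328). The call of Stard3 was lost under the 3 scalings (adjusted p = 0.0555 to 0.0979) and without any array but tumor 3 (adjusted p = 0.0618 to 0.14).

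Around Ch25h, 1 of 5 genes of oxysterol metabolism and its receptor rose and 1 fell. Gpr183, the receptor for an oxysterol made from the Ch25h product, rose from 8.54 ± 0.14 to 9.99 ± 0.09, by 1.45 ± 0.15 (adjusted p = 4.45e-04). Hsd3b7, an enzyme that acts on that oxysterol, fell by 0.93 ± 0.24 (adjusted p = 0.0464). That call of Hsd3b7 was lost without any array but tumor 3 (adjusted p = 0.0647 to 0.189), with no filter (adjusted p = 0.0568) and with a pseudocount of 16 (0.0532).

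Of 26 other genes of fatty acid synthesis, elongation and desaturation 1 fell and 0 rose. At an unadjusted p under 0.05 by limma, 5 were lower and 2 higher, with no share of all genes to set beside them. Idh1, an NADPH-making dehydrogenase of the cytosol, fell from 10.79 ± 0.21 to 9.44 ± 0.20, by 1.35 ± 0.17 (adjusted p = 0.00183). Of 15 genes of phosphatidic acid and triglyceride synthesis 1 rose and 1 fell. Cnep1r1, the regulatory partner of the phosphatase that activates lipins, rose by 0.90 ± 0.18 (adjusted p = 0.0163, lost without spleen 1, spleen 2 or tumor 1 with adjusted p = 0.0705 to 0.0854). Gpam, the mitochondrial glycerol-phosphate acyltransferase that starts the route, fell by 0.61 ± 0.16 (adjusted p = 0.0483). The call of Gpam was lost without any array but tumor 3 (adjusted p = 0.0984 to 0.2) and with a trended and robust prior (adjusted p = 0.0634). With the replicate number as a block the calls, higher and lower, numbered 1 and 1 in other sterol synthesis, 1 and 1 in SREBP processing, 2 and 3 in uptake and trafficking, 1 and 1 in oxysterol metabolism, 3 and 6 in other fatty acid synthesis and 3 and 2 in triglyceride synthesis. Over all genes tested the block called 29.0% (11.7% higher and 17.3% lower). The median difference of these 6 lists lay between -0.25 and 0.00, against -0.05 over all genes.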

How the data were processed

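Intensities per probe set of 6 arrays were used as deposited, in 1 table whose values are linear. The authors used RMA, per the submitters' processing notes, which corrects background, normalizes and summarises probes. Its version, its settings and the array's genome build are not given in the labels. Genes were named from the platform annotation as GEO gives it, using the 23521 of 41345 probe sets with 1 symbol. The probe set with the highest mean stood for a gene, and a gene was tested if it lay above its array's 25th percentile on at least 3 arrays (18458 of 22180 genes). Values were log2(intensity + 1), and folds are on that scale.

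Groups were compared by a two-sided test in limma 3.58.1 under R 4.3.3, using lmFit and eBayes on the group alone. Its p-values were adjusted by Benjamini and Hochberg's method across every gene tested. The number of arrays limits the precision. The replicate numbers were read as pairing: deviations from group means correlated at 0.36, 0.44 and 0.71 between equal numbers 1, 2 and 3, although spleen 1 with tumor 2 (0.46) and spleen 2 with tumor 1 (0.35) did so too. Blocked values are given where they change the call of a member or named gene, and as counts for the other lists. The members, lists and rules were chosen with earlier results of these data known. By rule every member is described. Values on all arrays are given for members called with a difference of at least 1 either way, for the regulators and for Ch25h, and from each other list up to 3 called genes per direction are named, or the 2 of smallest p. Alternatives were median centring, quantile normalization, cyclic loess, a pseudocount of 16, no filter, a 50th percentile filter, the mean of probe sets, a trended and robust prior, the block, numbers 1 and 2 alone, an adjusted p under 0.01 and each array left out.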

Additional observations from a re-analysis of the deposited data

Results flagged for a closer look

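Among the pathway's probe sets left out of the gene comparison, 2 had all 3 tumor arrays above all 3 spleen arrays. The probe set listed with both Idi1, the isomerase of the mevalonate route, and Gm13502 read 8.29, 8.39 and 8.88 in spleen and 10.16, 9.75 and 10.39 in tumor, a difference of 1.58. It cannot be given to either gene by its name, and it was not tested. The second probe set of Ch25h, left out because it was the dimmer one, stood at 0.57 and entered the mean of probe sets alone.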

How the results depend on the processing

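Ch25h, Lpin1, Fads1 and Pmvk kept direction and call under all 17 alternatives, with ranges of 1.94 to 3.39, -2.76 to -2.48, -1.98 to -1.83 and 0.91 to 1.11. No called member changed direction. The count of all called genes, 1952, became 3289 with each array centred on its median, 3506 with quantile normalization, 3184 with cyclic loess, 5346 with the replicate block, 2936 among numbers 1 and 2 and 961 at an adjusted p under 0.01. Sterol arm calls, 4, became 9 with the block and 1 at an adjusted p under 0.01. Fatty acid arm calls, 4, became 7 with median centring, 8 with quantile normalization, 7 with the block, 7 among numbers 1 and 2 and 2 at an adjusted p under 0.01. With each array left out in turn the counts ran from 1011 to 1924 over all genes, from 1 to 3 in the sterol arm and from 2 to 5 in the fatty acid arm, and Ch25h from 3.25 to 3.36. The block changed no member's call other than those given above. Uncalled members near 0 changed sign under single alternatives: Hmgcs1 (0.030), Nsdhl (0.019), Me1 (0.035) and Srebf1 (0.10) with cyclic loess, Me1 (0.017) with a pseudocount of 16, Sc5d (-0.046) and Srebf1 (0.042) with quantile normalization, and Nsdhl (0.031) and Srebf1 (0.020) among numbers 1 and 2. With each array left out, Cyp51 ran from -0.19 to 0.40, Elovl6 from -0.45 to 0.065, Fdps from -0.33 to 0.12, Hmgcs1 from -0.23 to 0.12, Hsd17b7 from -0.24 to 0.017, Me1 from -0.47 to 0.29, Mvk from -0.40 to 0.095, Nsdhl from -0.18 to 0.10, Sc5d from -0.14 to 0.19 and Srebf1 from -0.072 to 0.073. Causes of these moves were not tested. Intensities near background understate folds, and 3 arrays per group limit every call.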

Other observations

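The probe set listed with both Scd2, a stearoyl-CoA desaturase, and Mir5114 read 10.38, 10.40 and 10.55 in spleen and 8.64, 8.58 and 8.81 in tumor. All tumor arrays lay below all spleen arrays, with a difference of -1.77 that was not tested, and the name does not tell which transcript it reads.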
